A study of Mus musculus with 18 samples.

Results

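The genes followed here were 10 precursors of sensory neuropeptides, Gal, Npy, Vip, Adcyap1, Calca, Calcb, Tac1, Nts, Sst and Nppb, chosen by name from the 47643 gene identifiers of the count table. All 10 were found, and 7 of them passed the filter on low counts (over 1 CPM, a count per 1000000 reads on genes, in at least 3 libraries) together with 13771 genes in all. Npy, Vip and Nppb did not pass and are described by their counts. RNA had been sequenced from eDRG spot cultures, dorsal root ganglion neurons of e13.5 CD-1 mouse embryos plated as dense spots and kept for about 7 days with FDU (5-fluorodeoxyuridine, which stops dividing cells). The axons were cut with a blade, and 3 cultures each were taken 1, 3 or 8 hours post injury (HPI) and at 16 or 24 HPI, beside 3 uninjured control cultures of the same strain, stage and medium. Strain and genotype were the same in all groups. The labels put collection of every group at DIV7 (day 7 in vitro) but the study's methods put the injury there, so injured cultures may have been up to 24 hours older than controls, and culture age and time after injury cannot then be told apart. The medium limits what the model holds, since FDU removes most dividing glia. Nothing in the labels says whether the 3 replicates of a group came from separate litters or cultures. The p-values measure the spread left between these libraries once differences between replicate numbers are fitted. That spread may be in part technical.

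Neuropeptides are cut from longer precursors in secretory granules, stored in dense-core vesicles and released from both the central and the peripheral ends of sensory neurons. Those of nociceptors, CGRP and substance P above all, widen vessels in the skin and increase pain transmission in the spinal cord. In the adult ganglion, cutting a peripheral nerve is known to change the peptide set, with galanin, NPY, VIP and PACAP rising and CGRP and substance P falling over days. The question was where the peptide genes stood in cut embryonic neurons over the first day.

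The libraries held 9478891 to 23082327 reads on genes, so that 3 counts, taken as the limit of detection, corresponded to 0.130 to 0.316 CPM. Sensory neuron markers were high, with Prph, an intermediate filament of peripheral neurons, at medians of 3715, 4175 and 4273 CPM in the libraries of replicates 1, 2 and 3. Markers of satellite glia, myeloid cells, endothelium and fibroblasts summed to at most 13.8 CPM per list in any library. Of the 4 Schwann cell markers only Mbp was tested, at medians of 111, 117 and 99.0 CPM. One library, 16 HPI replicate 1, held 4.62% residual ribosomal RNA, the highest of the 18. Same-numbered libraries deviated together from their group means (mean r = 0.619 across 45 pairs, against −0.308 across 90 pairs with different numbers), and the replicate number was therefore kept in the fit as a block. As these are bulk libraries, fewer cells of a type and less RNA per cell cannot be told apart for any gene below.

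The promoter sequences that the later results refer to are shown first. RefSeq windows on GRCm38.p6 that ran from 250 bases before to 50 bases after a gene's start were found for 9 of the 10 members, with Calcb the exception, and 4 elements were searched on both strands. The AP-1 element TGAGTCA or TGACTCA, the site that Fos and Jun proteins bind, was present in 5.2% of all 32851 windows and in 1 member, Nts. The full cyclic AMP response element TGACGTCA was in 1.79% of windows and in 1 member, Sst. The variant TGACGCAA was in 0.49% of windows and in 2 members, Calca and Tac1. The shorter element TGACGT, which overlaps the full one, was in 7.51% of windows and in 3 members, Vip, Sst and Adcyap1. The stretches below are given for the member that changed most after injury (Nts), for the 2 that differed most between replicates toward replicate 1 among the abundant members (Calca and Tac1) and for the member that differed most toward replicate 2 (Sst). Each reads 5′ to 3′ on the gene's own strand, the capitals mark the element, and the stretches were ended before the more upstream of the RefSeq and GENCODE starts, except for Sst, where only the bases around the element are shown.
Nts, chr10:102490487-102490668, minus strand: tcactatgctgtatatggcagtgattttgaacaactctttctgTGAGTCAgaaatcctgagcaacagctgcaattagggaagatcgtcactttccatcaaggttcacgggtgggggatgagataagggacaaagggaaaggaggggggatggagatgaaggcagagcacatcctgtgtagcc
Calca, chr7:114636358-114636607, minus strand: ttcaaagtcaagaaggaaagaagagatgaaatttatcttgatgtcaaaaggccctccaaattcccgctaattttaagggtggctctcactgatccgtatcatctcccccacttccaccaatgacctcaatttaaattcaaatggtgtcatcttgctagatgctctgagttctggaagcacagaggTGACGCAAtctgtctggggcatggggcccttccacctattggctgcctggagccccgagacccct
Tac1, chr6:7554811-7554878, plus strand: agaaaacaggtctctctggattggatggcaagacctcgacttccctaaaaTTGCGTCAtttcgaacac
Sst, chr16:23890875-23890902, minus strand: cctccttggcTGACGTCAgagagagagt
In Tac1 the element lies in the opposite direction, so it reads as its reverse complement. The element of Nts ends 133 bases before the GENCODE start, that of Calca 58 bases and that of Tac1 11 bases before it. The element of Sst lies 41 bases before the RefSeq start but 73 bases inside the GENCODE transcript. A match is a description of these letters and was not linked to binding by any measurement here.

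In uninjured cultures, the CGRP genes had the highest levels of the 10. Per exon length, Calca, which encodes calcitonin and αCGRP from alternative exons (chr7:114631478-114636357 of GRCm38), had 149 ± 122 RPKM (CPM per kilobase of exon, SD, n = 3). Calcb (chr7:114718643-114723365), the βCGRP gene, had 19.6 ± 6.34 RPKM and Tac1 (chr6:7554879-7565834), the precursor of substance P and neurokinin A, 5.71 ± 8.64 RPKM. Adcyap1 (chr17:93199017-93206537), which encodes PACAP, a peptide that raises cyclic AMP, had 3.59 ± 2.41 RPKM and Gal (chr19:3409915-3414544), the galanin gene, 1.17 ± 0.598 RPKM. These 5 averaged over 1 RPKM, and 5 did not. Sst (chr16:23889573-23890958), the somatostatin gene, followed at 0.764 ± 1.09, Npy (chr6:49822710-49829507), the neuropeptide Y gene, at 0.615 ± 0.913 and Nts (chr10:102481756-102490486), the neurotensin gene, at 0.284 ± 0.205 RPKM. Nppb (chr4:147985788-147987205), the precursor of the itch transmitter BNP, had 2 counts in 1 control library and Vip (chr10:5639218-5647617), the precursor of vasoactive intestinal peptide, 2 counts in another.

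The order of these levels held only in part between libraries. Calca and Calcb did not overlap in control, at 76.2 to 291 against 13.6 to 26.3 RPKM, and Calcb stayed above Adcyap1, at 2.01 to 6.36 RPKM, and Adcyap1 above Gal, at 0.824 to 1.86 RPKM. Tac1 overlapped both of its neighbours, with 15.7 RPKM in replicate 1 and 0.492 and 0.941 RPKM in replicates 2 and 3. Gal lay above Nts (0.157 to 0.520 RPKM) in every control library, whereas Sst (0 to 2.02 RPKM) and Npy (0.0865 to 1.67) overlapped both of them and each other. The gene counts cannot part calcitonin from αCGRP transcripts. No member overlapped another annotated gene, and the longest run shared by Calca and Calcb was 61 bases.

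**Figure D1:**
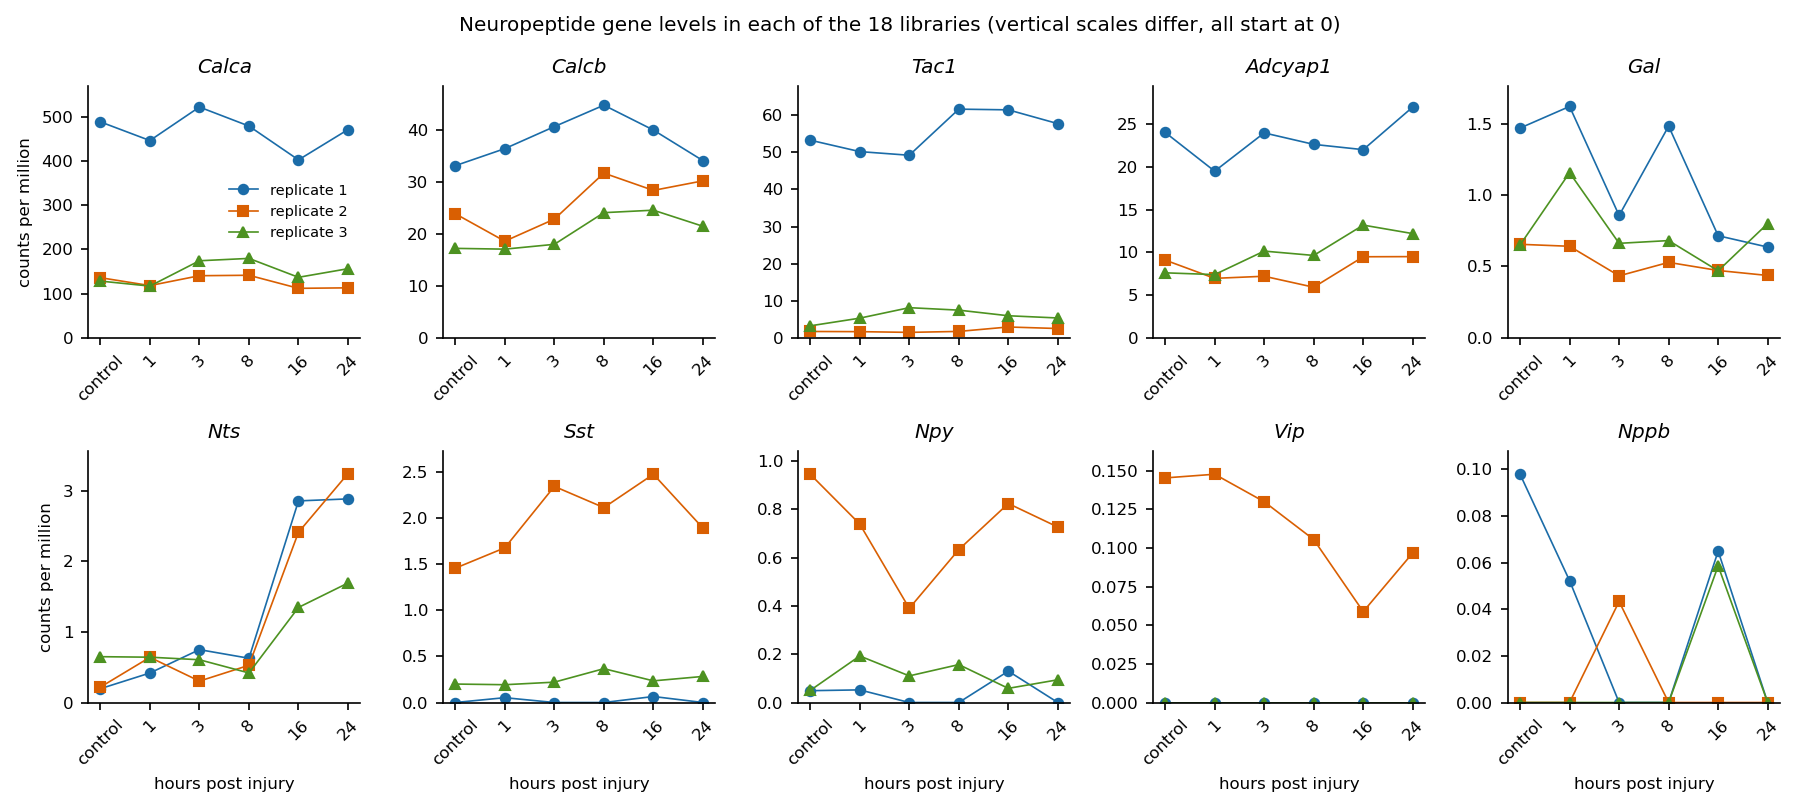
Level in CPM (vertical axis, own scale per gene, starting at 0) of each of the 10 genes against hours post injury (horizontal axis), with 1 line and marker per replicate number. Replicate 1 is the highest line of Calca, Calcb, Tac1 and Adcyap1 throughout, replicate 2 that of Sst, Npy and Vip, and Nts rises in all 3 replicates at 16 and 24 HPI.

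Of the 10 genes, only Nts was called after injury (adjusted p under 0.05 and over 2-fold), at 16 and 24 HPI. Neurotensin is a short peptide that lowers body temperature and modulates pain when given to the brain or spinal cord. In the control libraries Nts had 4, 3 and 13 counts (0.196, 0.218 and 0.649 CPM in replicates 1, 2 and 3). It had 8, 13 and 10 counts at 1 HPI, 14, 7 and 11 at 3 HPI and 11, 5 and 8 at 8 HPI. It then had 44, 41 and 23 counts at 16 HPI (2.86, 2.41 and 1.35 CPM) and 50, 67 and 36 counts at 24 HPI (2.89, 3.24 and 1.69 CPM). All 6 late libraries lay above all 12 earlier ones, and replicate 3 had both the highest control value and the lowest late values. The 6 late libraries are also those over 1 CPM through which Nts passed the filter. Their separation is thus a description, and the share of all genes that separate in this way was not counted.

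The fitted log2 fold change of Nts against control was 2.51 at 16 HPI (SE 0.40, adjusted p = 0.00011, quasi-likelihood test of edgeR, Benjamini-Hochberg) and 2.77 at 24 HPI (SE 0.38, adjusted p = 5.48e-05). These correspond to 5.71-fold and 6.80-fold, with 95% intervals on the log2 scale of 1.68 to 3.35 and 1.97 to 3.56, and all 3 replicates were higher at both times. Among all genes tested, 1.49% were called at 16 HPI (1.18% higher) and 0.821% at 24 HPI (0.639% higher). Between 8 and 16 HPI, Nts rose by 2.01 on the log2 scale (SE 0.39, adjusted p = 0.00145, 0.937% of genes called, 0.799% higher), and from 16 to 24 HPI the difference was 0.25 (interval −0.31 to 0.82, adjusted p = 0.631, 0.508% of genes called, 0.0944% higher). At 1, 3 and 8 HPI the log2 fold changes were 0.57, 0.50 and 0.50, each with an interval that ran from below 0 to above 1. Nts passed the filter through its 6 late libraries, the ones over 1 CPM. Under that filter, a gene with this profile had to differ to be tested. A filter of at least 10 counts over all libraries is met by the 13 counts of control replicate 3 alone. With it, the log2 fold changes were 2.52 at 16 HPI and 2.78 at 24 HPI (adjusted p = 8.48e-06 and 2.07e-06, edgeR). The lowest control counts were at the limit of detection, and leaving out control replicate 3 moved the log2 fold change to 3.55 at 16 HPI and 3.80 at 24 HPI.

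Some markers of other cells were also higher at 16 and 24 HPI. Among 3 fibroblast markers, Dcn was called higher at 16 HPI (log2 fold change 2.07, adjusted p = 1.77e-05) and 24 HPI (2.22, adjusted p = 1.58e-05), while Col1a1 and Col3a1 were not called. The summed level of the 3 was 1.599 to 5.84 CPM in control and 2.15 to 13.8 CPM at 8 HPI. It was 3.71 to 9.9996 CPM at 16 HPI and 3.24 to 8.98 CPM at 24 HPI. The highest sum was in 8 HPI replicate 2 and came mostly from Col3a1 (9.92 CPM) and Col1a1 (3.16 CPM). The 4 myeloid markers summed to 3.42 to 4.70 CPM in control, 4.87 to 6.002 CPM at 16 HPI and 5.36 to 7.07 CPM at 24 HPI, and of these Cd68 rose below 2-fold (log2 fold change 0.97 and 0.93, adjusted p = 0.00698 and 0.0125). Their part in the change of Nts was not tested. The genes whose log2 CPM followed Nts most closely over the 18 libraries after the replicate differences were removed were Itgb5 (r = 0.938), 4930438A08Rik (r = 0.933) and Syngr2 (r = 0.933), a description over points that share libraries and groups.

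The 2 CGRP genes moved by less than 2-fold. Calcb was 33.2, 23.9 and 17.2 CPM in control and 44.9, 31.8 and 24.1 CPM at 8 HPI, the highest value of replicates 1 and 2. At 16 HPI it was 40.1, 28.4 and 24.6 CPM and at 24 HPI 34.2, 30.3 and 21.5 CPM. The groups overlapped, since replicate 1 was high throughout, but within each replicate number the 8, 16 and 24 HPI libraries all lay above their control. Calcb rose by 0.45 on the log2 scale at 8 HPI (1.37-fold, SE 0.09, adjusted p = 0.00508, edgeR) and by 0.33 at 16 HPI (1.25-fold, SE 0.09, adjusted p = 0.0140), where 7.68% and 22.2% of all genes passed the same threshold at any size. At 24 HPI the difference of 0.23 did not pass (adjusted p = 0.0983). The 16 HPI value did not pass when replicate 1 or 3 of control or replicate 3 of 16 HPI was omitted (adjusted p = 0.0692, 0.0584 and 0.0632). With the replicate number replaced by a RUVs factor, an unwanted-variation term estimated from the counts, the 8 HPI value did not pass (0.36, adjusted p = 0.197).

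Calca did not pass against control at any time. Its control values were 489, 136 and 128 CPM, and its values were 447, 118 and 117 CPM at 1 HPI, 523, 140 and 174 at 3 HPI, 480, 141 and 180 at 8 HPI, 403, 112 and 137 at 16 HPI and 472, 113 and 156 CPM at 24 HPI. All 3 replicates were above their control at 3 HPI and below it at 1 HPI, and at 8 HPI replicate 1 was slightly below it and the others above. The log2 fold changes lay between −0.18 and 0.18, and their intervals reached −0.36 at the lowest and 0.36 at the highest, so a change of 2-fold in either direction was outside them. From 8 to 16 HPI Calca fell by 0.35 on the log2 scale (SE 0.09, adjusted p = 0.00809, edgeR, 15.2% of all genes passing at any size), in all 3 replicates. That fall did not pass without 8 HPI replicate 3 (−0.28, adjusted p = 0.0694), and it was gone with the RUVs factor (0.02, adjusted p = 0.99).

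**Figure D2:**
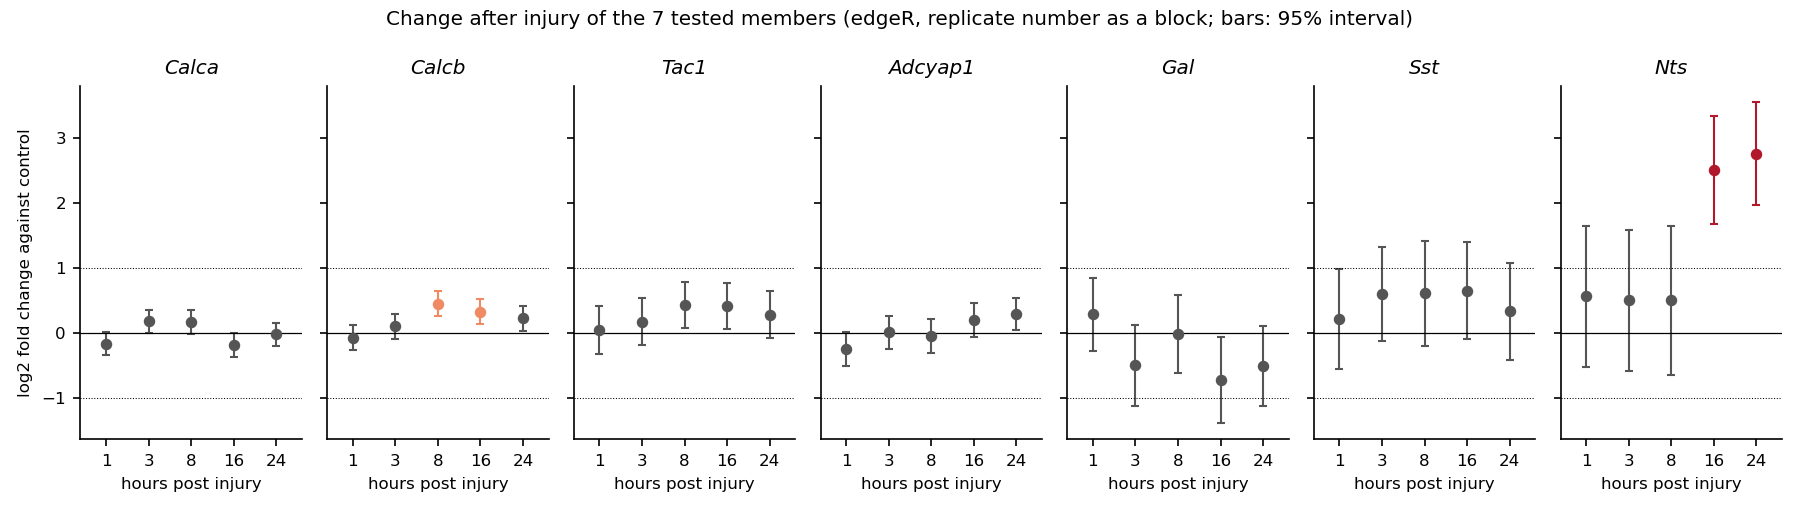
Log2 fold change against control (vertical axis) at 1, 3, 8, 16 and 24 HPI (horizontal axis) for the 7 tested genes, as points with 95% intervals. Dark red points are called (Nts at 16 and 24 HPI, 2.51 and 2.77), orange points passed the adjusted p below 2-fold (Calcb at 8 and 16 HPI), grey points did not pass, and dotted lines mark 2-fold.

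The other tested members did not pass against control at any time. Tac1 had 53.3, 1.67 and 3.20 CPM in control, 61.7, 1.69 and 7.43 CPM at 8 HPI and 61.5, 2.88 and 5.92 CPM at 16 HPI. Its log2 fold changes were 0.43 at 8 HPI (interval 0.07 to 0.79, adjusted p = 0.143, edgeR) and 0.42 at 16 HPI (interval 0.06 to 0.78, adjusted p = 0.0928). Without control replicate 1 they were 0.96 and 0.95 and passed (adjusted p = 0.0342 and 0.0137), so the size of the Tac1 value rested on that library. Its values at 1, 3 and 24 HPI were 0.05, 0.18 and 0.28.

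Adcyap1 had 24.0, 9.09 and 7.59 CPM in control, 19.5, 6.94 and 7.39 CPM at 1 HPI and 27.0, 9.49 and 12.2 CPM at 24 HPI. It was lower than control in all 3 replicates at 1 HPI (log2 fold change −0.25, adjusted p = 0.413, edgeR) and its largest positive value was 0.29 at 24 HPI (interval 0.04 to 0.54, adjusted p = 0.108). Gal had 1.47, 0.654 and 0.649 CPM in control, or 30, 9 and 13 counts, and 0.714, 0.471 and 0.469 CPM at 16 HPI, or 11, 8 and 8 counts. None of the 3 replicates was higher at 16 HPI (log2 fold change −0.72, interval −1.39 to −0.06, adjusted p = 0.116). At 24 HPI, with 11, 9 and 17 counts, the value was −0.51 and the interval ran from −1.13 to 0.11. A rise of 2-fold in Gal was thus outside the intervals at 1, 3, 8, 16 and 24 HPI, whose upper ends were 0.85, 0.12, 0.58, −0.06 and 0.11.

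Sst had log2 fold changes between 0.22 and 0.66, with intervals from −0.55 to 1.42 over the 5 times, and rested on the replicate 2 libraries. Npy had 1, 13 and 1 counts in control and 0, 15 and 2 counts at 24 HPI. With a filter of at least 10 counts over all libraries, its log2 fold change at 24 HPI was −0.31 (interval −1.46 to 0.83, adjusted p = 0.830, edgeR). Vip had 0 to 3 counts in every library and 12 in all, and Nppb 0 to 2 counts and 6 in all, so a change in either was not detectable at this depth.

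Over all 5 times together, 4 of the 7 tested genes had a time effect, Nts (adjusted p = 6.16e-06), Calcb (0.00116), Calca (0.00593) and Adcyap1 (0.0189, edgeR's F test), beside 30% of all tested genes. Nts had passed the filter through its late libraries, so its time effect is not independent of the filter. Gal (0.0678), Tac1 (0.184) and Sst (0.492) did not pass, though Tac1 did without control replicate 1 (0.0413) or 3 HPI replicate 3 (0.0133) and Gal did without 24 HPI replicate 3 (0.0343). Adcyap1 did not pass without 1 HPI replicate 1 or 3, or without 24 HPI replicate 1 or 3 (adjusted p = 0.0570, 0.0546, 0.0573 and 0.0529). At 1, 3 and 8 HPI no member was called, beside 0.029%, 0.029% and 0.537% of all genes (0.029%, 0.0218% and 0.254% higher), and DESeq2 called none either. By edgeR, 0 members at 1 and 3 HPI and 2 at 8 HPI, Calcb and Tac1, were under 0.05 before adjustment. By p-value Calcb ranked 252 and Tac1 2069 of 13771 genes at 8 HPI. At least 2069 genes were thus under 0.05 there, and the count of members is a description. Without the limit of 2-fold, 0.276%, 0.189%, 7.68%, 22.2% and 15% of all genes passed at the 5 times in order, and 9.82% between 16 and 24 HPI. The median log2 fold change of the 7 was 0.05, 0.18, 0.43, 0.33 and 0.28 at 1, 3, 8, 16 and 24 HPI, against 0.00 to 2 decimals for all genes tested at each time.

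Most of these genes differed between replicate numbers by larger folds than between times. Calca had been known to be uneven when the genes were chosen, so its values are a description. Over its 6 libraries, replicate 1 had 403 to 523 CPM (median 476), against 112 to 141 (median 127) in replicate 2 and 117 to 180 (median 147) in replicate 3, and no library of replicate 1 overlapped the others. For Tac1, replicate 1 had 49.2 to 61.7 CPM (median 55.5), replicate 2 had 1.43 to 2.88 (median 1.68) and replicate 3 had 3.20 to 8.10 (median 5.62). The 3 replicates did not overlap for Tac1, which fell from replicate 1 to replicate 3 to replicate 2 in the control group and at each of the 5 times.

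Tac1 was 29.6-fold higher in replicate 1 than in replicate 2 (log2 difference 4.89, SE 0.14, adjusted p = 1.05e-16, edgeR) and 10.4-fold higher than in replicate 3 (3.38, SE 0.11, adjusted p = 1.61e-15). By p-value its replicate effect ranked 9 of 13771 genes. Adcyap1 was 3.05-fold and 2.54-fold higher in replicate 1 than in replicates 2 and 3, with medians of 23.3, 8.14 and 9.88 CPM. Calca was 3.90-fold and 3.45-fold higher. The differences of Calcb were smaller, 1.57-fold and 2.05-fold (medians 38.3, 26.2 and 19.8 CPM), as were those of Gal, 2.22-fold and 1.65-fold (medians 1.16, 0.499 and 0.671 CPM). Of all genes, 2.32% were called between replicates 1 and 2 (1.45% higher in replicate 1), 3.46% between replicates 1 and 3 (1.31% higher in replicate 1) and 1.89% between replicates 2 and 3 (0.632% higher in replicate 2).

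Sst ran the other way. It had 20, 34, 54, 20, 42 and 39 counts in the replicate 2 libraries from control to 24 HPI in order of time (1.45 to 2.47 CPM), 3 to 7 counts in those of replicate 3 and 0 or 1 count in those of replicate 1. Over the 6 libraries of each number it had 209 counts in replicate 2, 2 in replicate 1 and 28 in replicate 3. The ratio of replicate 2 to replicate 1 at equal depth was 109 (95% interval 29.7 to 904, for counting error only) and to replicate 3 7.96 (5.35 to 12.3). Npy shared this order, with 72 counts in replicate 2 (6 to 15 per library), 12 in replicate 3 and 4 in replicate 1, a ratio of 18.7 to replicate 1 (7.01 to 70.6). All 12 Vip counts were in replicate 2, in each of its 6 libraries, which is at least 4.16-fold more than in replicate 1 when its 0 counts are set to 3 over the group.

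A replicate effect was found for 60.9% of all genes tested, so that having one is not particular to the members. Calca was chosen as uneven, Sst passed the filter only through its replicate 2 libraries and Gal mainly through those of replicate 1, and for these 3 no test between replicates is given. Of the 4 others, Tac1, Adcyap1 (adjusted p = 2.03e-12, edgeR's F test) and Calcb (8.23e-11) had a replicate effect and Nts did not (adjusted p = 0.147). The medians of Nts were 0.688, 0.584 and 0.646 CPM, and it passed without control replicate 3 (adjusted p = 0.0218). With the filter of at least 10 counts Npy had a replicate effect too (adjusted p = 2.38e-08), and Vip met that filter through replicate 2 alone.

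**Figure D3:**
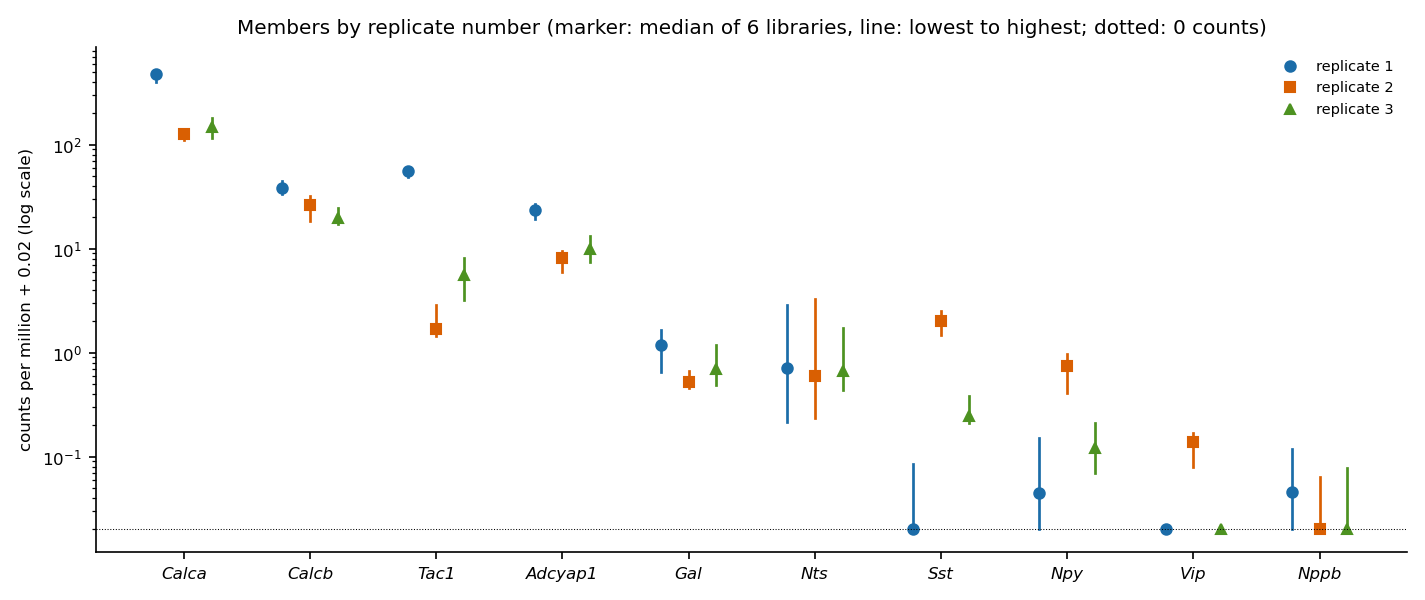
Level of the 10 genes in CPM plus 0.02 (log scale, vertical axis) by replicate number, as the median of the 6 libraries with a line from the lowest to the highest. Tac1 lies at medians of 55.5, 1.68 and 5.62 CPM in replicates 1, 2 and 3, whereas Sst, Npy and Vip are highest in replicate 2 and the dotted line marks 0 counts.

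Other genes of peptidergic neurons differed between replicate numbers too. Trpv1, the capsaicin receptor of heat-sensitive nociceptors, had medians of 3.85, 0.291 and 1.13 CPM in replicates 1, 2 and 3, the order of Tac1 (log2 difference of replicates 1 and 2 3.54, adjusted p of the replicate effect 1.98e-12, edgeR). Scn10a, a sodium channel of nociceptors, had medians of 446, 320 and 433 CPM, a smaller difference between replicates 1 and 2 (0.52 on the log2 scale). Osmr and Il31ra, receptor genes that share itch-sensing neurons with Sst and Nppb in the adult, were highest in replicate 1, with medians of 1.35, 0.424 and 0.395 CPM and of 0.245, 0.0606 and 0.0791 CPM, and not in replicate 2 where Sst was.

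A list of inhibitory neurons of the dorsal spinal cord, which express many of the same peptides, was added after these levels had been seen. Its 8 genes (Pax2, Lbx1, Gad1, Gad2, Slc32a1, Slc6a5, Lhx1 and Lhx5) summed to 4.75 to 7.75 CPM in the replicate 2 libraries, 0 to 0.231 CPM in those of replicate 1 and 0.385 to 1.29 CPM in those of replicate 3, with no overlap. Gad1, a synthetic enzyme for GABA, had medians of 0, 1.99 and 0.128 CPM, Gad2, the second such enzyme, 0, 1.27 and 0.216 CPM, and Slc6a5, the glycine transporter of glycinergic terminals, 0.0261, 2.02 and 0.279 CPM. These 3 passed the filter only through replicate 2 libraries, so that no test between replicates is given, and none was called at any time after injury. Sst and Npy followed the same order of replicates, and Vip was counted in replicate 2 alone. The part of such cells in the levels of Sst, Npy and Vip was not tested. Without the 6 libraries of replicate 2, Nts was still called at 16 HPI (log2 fold change 2.28, adjusted p = 0.00476) and 24 HPI (2.42, adjusted p = 0.00686).

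The other peptide precursors gave 7 of 32 genes that passed the filter, and none was called after injury. Vgf, the precursor of a group of granule peptides, was at medians of 361, 362 and 456 CPM and rose by 0.23 on the log2 scale at 16 HPI (adjusted p = 0.0353, edgeR). Adm, which encodes the vasodilator adrenomedullin, had −0.70 at 8 HPI (adjusted p = 0.136) and Grp, the precursor of the itch peptide gastrin-releasing peptide, 0.60 at 24 HPI (adjusted p = 0.202). Ucn3, Iapp, Npvf and Galp had 0 counts in all 18 libraries, which allows up to 3 counts in each. Among precursors of opioid peptides, Pomc did not follow the replicate number, with 90, 98 and 96 counts in replicates 1, 2 and 3 (adjusted p of the replicate effect 0.893, edgeR). The others were rare and highest in replicate 2, with 45 counts of Penk in replicate 2 against 8 and 15 in replicates 1 and 3, 41 of Pdyn against 13 and 13, and 95 of Pnoc against 4 and 28. Cck (26 against 1 and 4) and Trh (34 against 4 and 6) had the same order, and none of Penk, Pdyn, Pnoc, Cck and Trh was tested.

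**Figure D4:**
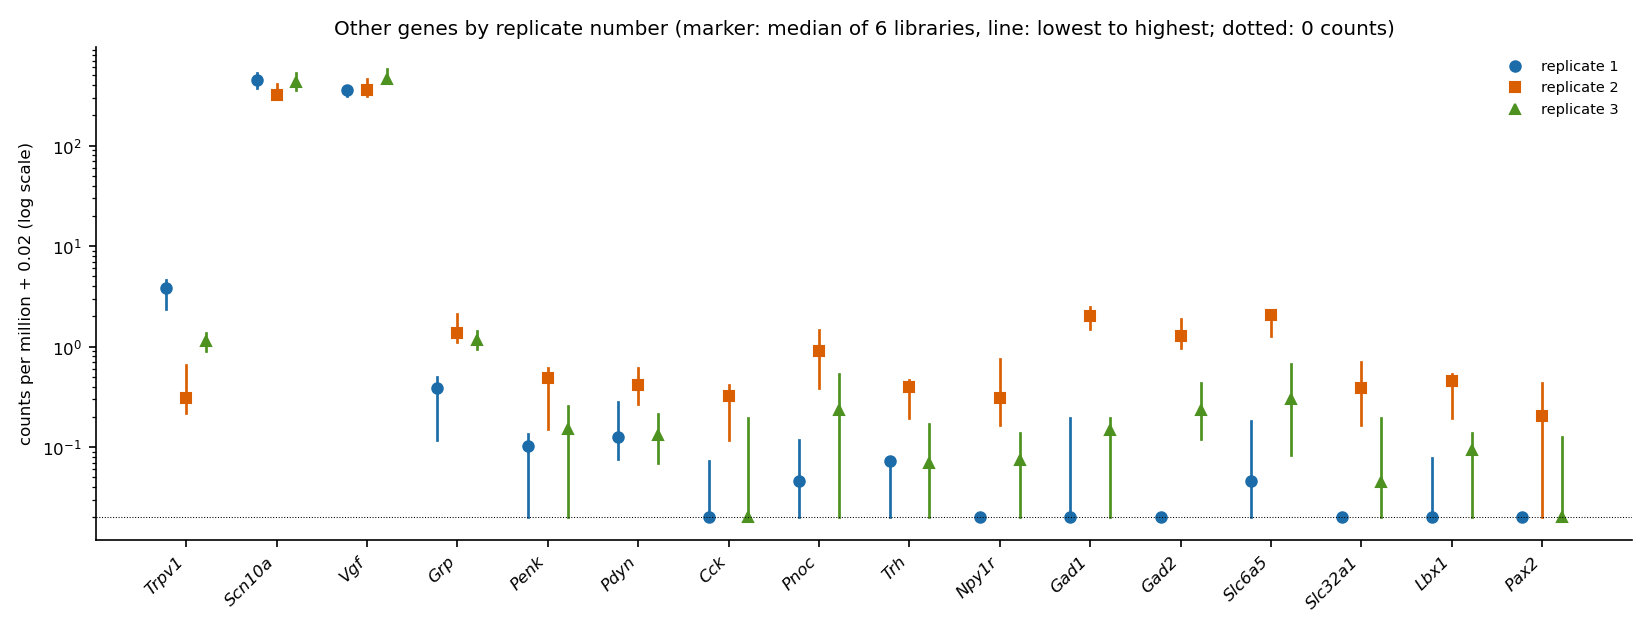
Level in CPM plus 0.02 (log scale, vertical axis) by replicate number of nociceptor genes, other peptide precursors, the NPY receptor gene Npy1r and genes of spinal inhibitory neurons, as the median of 6 libraries with a line from the lowest to the highest. Trpv1 is highest in replicate 1, Scn10a and Vgf differ by less than 2-fold between replicate medians, and the genes from Penk to Pax2 have their highest median in replicate 2.

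Of 30 receptor genes for neuropeptides that were matched, 13 passed the filter. Of these 2 were called, 1 at 8 HPI and 1 at 16 HPI, beside 0.537% and 1.49% of all genes. Calcrl, the shared receptor chain for CGRP and adrenomedullin, rose at 8 HPI (log2 fold change 1.24, adjusted p = 1.1e-05, edgeR) and had −0.26 at 24 HPI (adjusted p = 0.281). Npy2r, the presynaptic Y2 receptor for neuropeptide Y, fell by 1.53 on the log2 scale at 16 HPI (adjusted p = 2.63e-05), less so at 24 HPI (−0.65, adjusted p = 0.021). At any size, 22.2% of all genes passed at 16 HPI. Below 2-fold, 3 receptor genes rose at 16 HPI, Tacr1, the substance P receptor (0.68, adjusted p = 0.0121), Calcrl (0.44, adjusted p = 0.0385) and Crcp (0.17, adjusted p = 0.0125). In the other direction, Npr2 fell by 0.30 at 16 HPI (adjusted p = 0.00246), Npy4r fell by 0.86 at 16 HPI (adjusted p = 1.04e-05) and Adcyap1r1, the PACAP receptor, fell by 0.41 and 0.56 at 16 and 24 HPI (adjusted p = 0.000376 and 3.59e-05). Neurotensin's receptor gene Ntsr2 did not pass, with values from −0.27 to −0.04. The median of the 13 was −0.04, −0.17, −0.12, −0.26 and −0.32 at 1, 3, 8, 16 and 24 HPI, against 0.00 for all genes.

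The genes that turn precursors into peptides gave no call. All 12 passed the filter, and their median log2 fold change stayed between −0.03 and 0.01. Pcsk2, a convertase that cuts precursors in granules, fell by 0.34 and 0.33 on the log2 scale at 16 and 24 HPI (adjusted p = 0.000187 and 0.000662, edgeR). Qpct, the enzyme that forms the pyroglutamate end of neurotensin, rose by 0.59 at 16 HPI and 0.90 at 24 HPI (adjusted p = 0.0246 and 0.00132), and Pam, which amidates the ends of peptides such as CGRP and substance P, rose by 0.16 and 0.18 (adjusted p = 0.0203 and 0.0147).

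Of 17 transcription factors tied to peptide genes 16 were tested, and 2, 2, 5, 7 and 4 were called higher at 1, 3, 8, 16 and 24 HPI and none lower. Among all genes, 0.029%, 0.0218%, 0.254%, 1.18% and 0.639% were called higher at these times. Several of the 16 factors are known injury genes of sensory neurons, so the count does not stand apart from the choice of the list. Fos and Fosb were called at all 5 times, and their values at 1 HPI were 2.52 and 2.83 on the log2 scale (adjusted p = 0.000745 and 0.00415, edgeR). Atf3, a cyclic AMP response factor family member induced in cut sensory neurons, followed with 2.29 at 8 HPI and 3.16 at 16 HPI (adjusted p = 1.82e-06 and 4.11e-09) and 1.19 at 24 HPI. Jun was called at 8 HPI (1.03, adjusted p = 1.46e-06) and Fosl2 at 8 and 16 HPI (1.49 and 1.85), and Junb at 16 and 24 HPI (1.49 and 1.02). Rest, a repressor of neuronal genes, was called at 16 HPI alone (2.06, adjusted p = 7.87e-06), as was Runx1, which steers nociceptors away from the peptidergic fate in development (1.35, adjusted p = 3.61e-05). Whether any of these factors has a part in the change of Nts was not tested.

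The nearest companions of the other members over the 18 libraries, with replicate differences removed, were Htr3a (r = 0.922), Rita1 (0.878) and Celf6 (0.869) for Calca and Arih2 (0.853), Ptges (0.850) and Jund (0.845) for Calcb. For Tac1 they were Csnk1d (0.816), Thnsl2 (0.812) and Abcd3 (0.808), for Adcyap1 Hist2h3c2 (0.859), Zfp599 (0.824) and Gzf1 (0.816), for Gal Mpg (0.874) and Lcorl (0.802) and for Sst Mrpl21 (0.810), Tmem17 (0.789) and Thoc5 (0.782). Htr3a encodes a serotonin-gated channel subunit and Ptges a prostaglandin E synthase. These are descriptions picked as the highest of 13771 genes, over points that share their libraries.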

How the data were processed

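Total RNA had been depleted of ribosomal RNA and made into libraries with SMARTer cDNA. The authors aligned reads with STAR to mm10 and deposited raw counts per gene for each of the 18 libraries. Their methods name featureCounts and the submitters' notes HTSeq, whose closing entries the files carry, and use of strand is not given in the sources used here. Reads on no gene (5 entries, 25.2% to 33.2% of a library) were left out. GENCODE vM21 gave names and exon lengths for 47224 of 47643 identifiers. Groups came from the labels.

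The fit was made by edgeR 4.0.16 under R 4.3.3 (TMM, time point and replicate number as terms, all 18 libraries, over 1 CPM in at least 3 libraries, quasi-likelihood tests, Benjamini-Hochberg adjustment over 13771 genes, called at adjusted p under 0.05 and over 2-fold). The comparisons with control share its 3 libraries. Alternatives used DESeq2 1.42.0, RLE or upper-quartile factors, other filters, a RUVs factor, no block, paired groups alone and omitted libraries. The code was tested on simulated counts. All 10 members are named, with the called genes and up to 3 others of each list and the 3 genes most alike per member, except for items that are not reported here. The members and lists were chosen with earlier results of these data known. Intervals on ratios of counts are exact binomial and cover counting error only. The libraries held 9478891 to 23082327 counts on genes, and no 2 of the 153 pairs were identical.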

Additional observations from a re-analysis of the deposited data

How the results depend on the processing

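Nts kept its call at 16 and 24 HPI under every alternative that tested it. Apart from the other filters, these alternatives kept the limit of 1 CPM, which Nts passed through its 6 late libraries. Their calls are thus not independent of that limit. With over 1 CPM required in all 18 libraries it was not tested, leaving 0 members called against control at 16 HPI or 24 HPI and 0 between 8 and 16 HPI. Without the replicate block the members with a time effect numbered 1, Nts, and with the RUVs factor 2. Without the block, Nts had log2 fold changes of 2.58 and 2.82 at 16 and 24 HPI (adjusted p = 0.0058 and 0.00902, edgeR), and no Calcb value passed. Leaving out 1 library gave 3 to 5 members with a time effect and 4 to 6 over 1 RPKM in control. The cause of these shifts was not tested.

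No called value changed sign. Most sign changes were of log2 fold changes near 0, except Nts at 3 and 8 HPI (0.50 at both in the reported fit) and Calca between 8 and 16 HPI, which had passed the adjusted p below 2-fold (−0.35). With upper-quartile factors Calca at 24 HPI was 0.0125. Without the replicate block Tac1 was −0.0676 at 1 HPI and −0.0569 at 3 HPI, and Adcyap1 was −0.0199 at 3 HPI. With the RUVs factor Tac1 was −0.0568 at 1 HPI, Adcyap1 −0.112 and Calcb −0.0094 at 3 HPI, and Calca 0.0235 at 16 HPI and 0.018 for 16 against 8 HPI. Leaving out 1 library gave ranges of −0.19 to 0.031 for Calcb and −0.12 to 0.59 for Tac1 at 1 HPI, of −0.14 to 0.11 for Adcyap1, −0.066 to 0.70 for Tac1 and −0.017 to 1.53 for Nts at 3 HPI, of −0.33 to 0.21 for Gal, −0.21 to 0.042 for Adcyap1 and −0.023 to 1.54 for Nts at 8 HPI, and of −0.13 to 0.080 for Calca at 24 HPI. Added after seeing the data, leaving out all 6 libraries numbered 1 gave Nts −0.15 at 3 HPI and −0.035 at 8 HPI, with Nts still called at 16 HPI (1.87, adjusted p = 0.0174) and 24 HPI (2.29, adjusted p = 0.0063). Leaving out the 6 numbered 2 gave Calcb 0.065 at 1 HPI, Gal 0.039 and Adcyap1 0.089 at 8 HPI and Calca 0.13 at 24 HPI. Depth limits Npy, Vip and Nppb, which had at most 15, 3 and 2 counts in a library.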
